A study of Mus musculus with 4 samples.

Results

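Lag3, Havcr2, Cd160, Cd200, Cd101 and Vsir encode inhibitory receptors or receptor ligands of T cells other than the checkpoint receptors PD-1, CTLA-4 and TIGIT. These 6 genes were chosen by name from the 31053 genes of the matrices, and all 6 were found in each of the 4 libraries. Their UMI counts (unique molecular identifiers, each standing for 1 captured RNA molecule) were followed in donor T cells of mice with graft-versus-host disease. Cells were divided by the antibody signal for CD45.1 and CD45.2. A CD45.1 over CD45.2 ratio below -0.6 on the log2 scale marked cells grown from the transferred regulatory T (Treg) cells, and a ratio above 2.2 marked cells grown from the transferred conventional T cells.

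In all 4 groups, BALB/c recipients were irradiated with 900 cGy on day 0. They received T cell-depleted bone marrow of CD45.1+ CD45.2+ C57BL/6 mice together with sorted CD4+ Foxp3-GFP+ CD25hi Treg cells that carried CD45.2 alone. Wild-type CD4+ and CD8+ conventional T cells carrying CD45.1 alone, on the same C57BL/6 background, followed 2 days later, and spleens were taken on day 8. The Treg cells were CD226+/+ TIGIT+/+ (wild type), CD226-/- TIGIT+/+ (CD226 knockout), CD226+/+ TIGIT-/- (TIGIT knockout) or CD226-/- TIGIT-/- (double knockout). Donor T cells were sorted as H-2Kb+ TCRb+. Each genotype was a single library from a pool of 3, so that values between genotypes have no replicate. For differences between cell classes the 4 libraries serve as replicates. Since each held Treg cells of another genotype, a difference between Treg-origin and conventional cells is an average over the 4 genotypes. Both libraries with intact TIGIT were run on lane 3 and both without it on lane 4, so lane and TIGIT status cannot be told apart. The labels do not say whether the 3 in a pool were recipients, donors or both. The p-values measure only the spread between these 4 libraries, in which pool, Treg genotype and lane cannot be told apart.

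Inhibitory receptors sit on the surface of activated T cells and dampen signals from the T cell receptor when they meet their ligands. LAG3 is a relative of CD4 that binds MHC class II, and TIM3 (the product of Havcr2) binds galectin-9 among other ligands. CD160 binds the herpesvirus entry mediator HVEM, CD200 is itself a ligand that signals through CD200R on other cells, CD101 is an immunoglobulin superfamily receptor, and VISTA (the product of Vsir) belongs to the B7 family. Several of these proteins are used as markers of exhausted T cells, and LAG3 and CD101 have also been studied in Treg cells.

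On the GRCm38 genome, Lag3 (ENSMUSG00000030124) lies on chromosome 6 at 124904361-124911705 on the minus strand. It lies between Cd4 and Ptms, which are on the same strand, with 16139 bases to Cd4 on one side and 1975 bases to Ptms on the other. Havcr2 lies on chromosome 11 at 46454935-46481255 (plus strand), Cd160 on chromosome 3 at 96798763-96829351 (minus strand), Cd200 on chromosome 16 at 45382135-45409053 (minus strand), Cd101 on chromosome 3 at 100993529-101029556 (minus strand) and Vsir on chromosome 10 at 60346851-60372684 (plus strand). Cd160 overlaps Pdzk1, and Vsir overlaps Cdh23, in both cases on the opposite strand.

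Havcr2 and Cd160 moved together between the classes. At the main antibody limits both were highest in CD8 cells and lowest in Treg-origin cells. With stricter limits neither was called lower in Treg-origin than in CD4 cells, as given below. The 250 bases before their starts are shown (RefSeq, GRCm38.p6; chr11:46454681-46454930, plus strand, for Havcr2 and chr3:96829352-96829601, minus strand, for the start of Cd160 at the end of the annotated gene). Capitals mark matches on either strand to letters bound by factors active in T cells: TGTGGT for RUNX, TGANTCA for AP1, TGGAAA for NFAT, AGGAAG for ETS and AGGTGTGA for T-box factors. The NFAT and ETS letters share the run GGAA.
Havcr2: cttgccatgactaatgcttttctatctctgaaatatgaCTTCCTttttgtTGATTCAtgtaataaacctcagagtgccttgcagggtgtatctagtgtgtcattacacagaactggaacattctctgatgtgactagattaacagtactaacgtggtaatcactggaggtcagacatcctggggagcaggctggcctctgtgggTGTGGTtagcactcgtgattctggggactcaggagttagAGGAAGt
Cd160: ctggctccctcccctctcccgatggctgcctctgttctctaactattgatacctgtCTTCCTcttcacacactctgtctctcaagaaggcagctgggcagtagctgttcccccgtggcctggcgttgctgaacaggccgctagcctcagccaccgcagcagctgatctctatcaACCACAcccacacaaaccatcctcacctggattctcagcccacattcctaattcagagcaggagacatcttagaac
The Havcr2 stretch held 1 RUNX, 1 AP1 and 2 ETS matches, and the Cd160 stretch 1 RUNX and 1 ETS match. The stretch before another start of Cd160 (chr3:96814522-96814771, not shown) also held 1 RUNX and 1 ETS match. That of Cd101, which was highest in Treg-origin cells, held 1 RUNX and 2 ETS matches, and those of Cd200 and Vsir held none. No such stretch was available for Lag3, so its matches were not counted. Over 32851 promoter stretches of this length, 14% held the RUNX letters, 6.75% the AP1 letters, 18.6% the NFAT letters, 29.5% the ETS letters and 1.12% the T-box letters, so the RUNX and ETS matches are of kinds that many promoters hold. A match is a run of letters only, and no binding was measured.

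The libraries held 7654 to 10383 cells after filtering, 36140 in all, with total counts of 84061005 to 87743463 UMIs and a median of 6972 to 9026.5 UMIs per kept cell. They shared 16 to 27 cell barcodes per pair. Treg-origin cells numbered 332 to 462 per library, conventional CD4 cells 2750 to 3100 and conventional CD8 cells 2098 to 3415. Treg-origin cells were shallower, with a median of 3921.5 to 5372 UMIs against 7039.5 to 9013 in CD4 cells and 8887 to 11901 in CD8 cells. The 7 Treg markers, Foxp3 and Ikzf2 among them, summed to 1620 to 1662 CPM (counts scaled to the total UMIs of a class) in Treg-origin cells against 323 to 382 CPM in CD4 and 222 to 256 CPM in CD8 cells. Foxp3 itself was at 47.3 to 64.1 CPM in Treg-origin cells and at 1.18 to 2.26 CPM in CD4 cells. Markers of other cells were uneven in the small Treg-origin class: the 5 neutrophil markers summed to 4.88 to 1720 CPM, the 6 B and plasma cell markers to 190 to 931 CPM and the 3 erythroid markers to 11.9 to 691 CPM. Leaving out the 9 to 17 Treg-origin cells per library with at least 2 UMIs of such markers (a narrower marker set chosen after seeing the data) changed no call for the 6 genes. In pools of cells, fewer cells with a gene and less RNA per cell cannot be told apart from a CPM value.

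**Figure D1:**
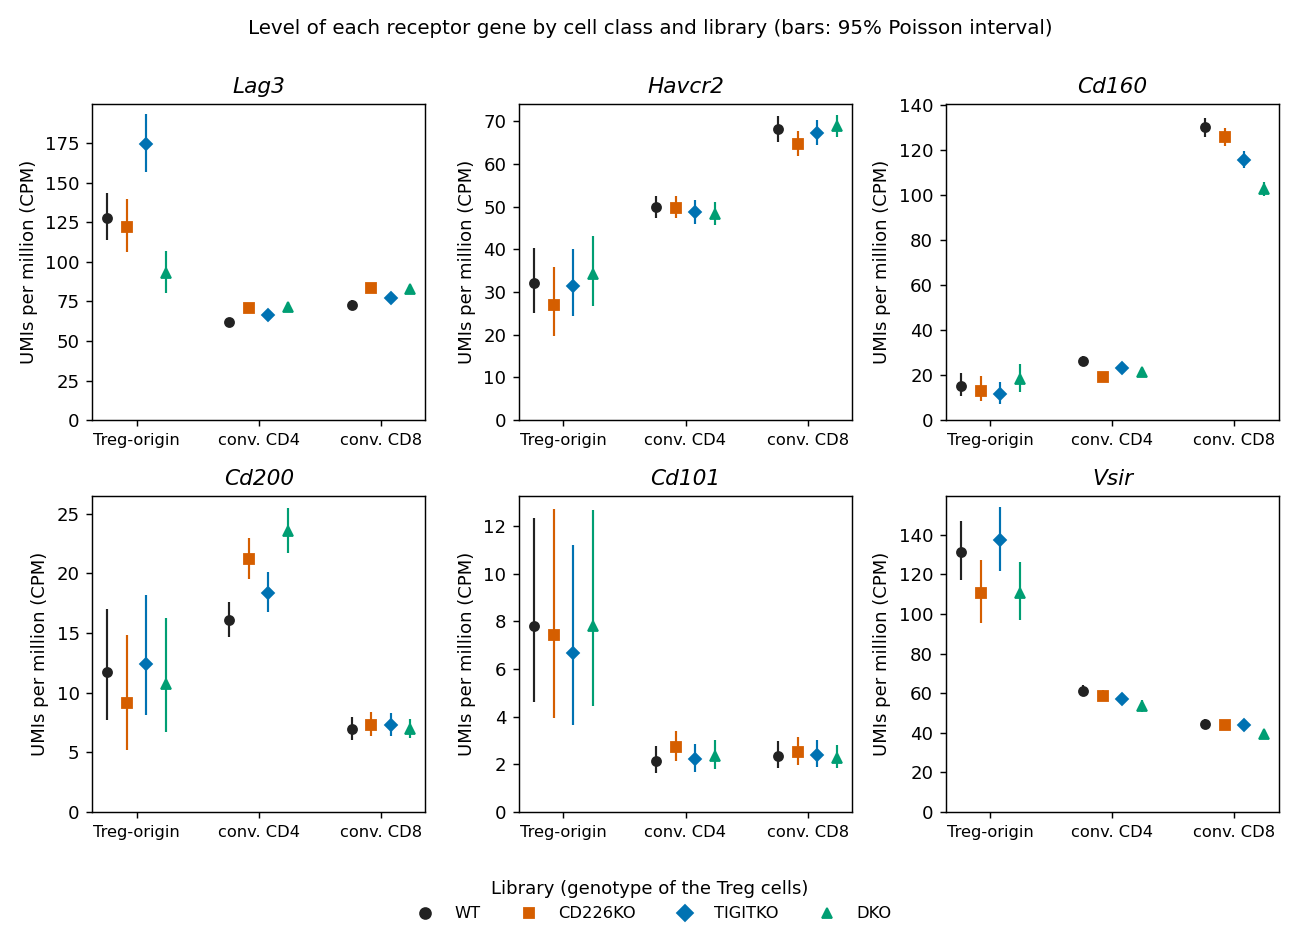
CPM (vertical axis) for the 6 receptor genes in Treg-origin, conventional CD4 and conventional CD8 cells. Each point is 1 library, coloured by the genotype of its Treg cells, with its 95% Poisson interval. Lag3, Cd101 and Vsir lie highest in Treg-origin cells, Havcr2 and Cd160 in CD8 cells and Cd200 in CD4 cells.

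Treg-origin cells were compared with conventional CD4 cells of the same library. All 6 genes passed the test (edgeR quasi-likelihood, library as block, n = 4, adjusted p of at most 0.05): Lag3, Cd101 and Vsir were higher in Treg-origin cells and Havcr2, Cd160 and Cd200 lower. Of the 10773 genes tested, 21.5% were called higher and 20.5% lower, 42.0% in all. CD4 cells needed more Cd4 than Cd8a plus Cd8b1 UMIs, whereas Treg-origin cells were not selected by these genes. This rule left out 1565 to 2775 conventional cells per library. They had 37.8 ± 0.898 CPM of Havcr2 and 52.7 ± 7.05 CPM of Lag3 (SD, n = 4). Treg-origin cells with more Cd4 UMIs (153 to 210 per library) had 36.4 ± 9.08 and 153 ± 60.4 CPM. The part of this selection in the folds was not tested.

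Lag3 stood at 128, 122, 174 and 92.7 CPM in Treg-origin cells, given here and for all values by library for Treg cells with both receptors, without CD226, without TIGIT and without either, and at 61.7, 70.9, 66.5 and 71.3 CPM in their CD4 cells. Every Treg-origin value lay above every CD4 value. The Treg-origin values spread from 92.7 to 174 CPM (mean 129 ± 33.8, SD, n = 4), whereas the CD4 values were close together (67.6 ± 4.49). The log2 fold was 0.91 with an SD of 0.42 between the paired library ratios (adjusted p = 4.44e-05 by edgeR), and it stayed between 0.73 and 1.07 when any library was left out.

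Vsir, which encodes VISTA, was at 131, 110, 137 and 111 CPM in Treg-origin cells against 61.2, 58.7, 57.2 and 53.5 CPM in CD4 cells. The groups did not overlap, and the log2 fold was 1.07 (SD of the paired ratios 0.14, adjusted p = 3.89e-08 by edgeR). Cells with at least 1 Vsir UMI made up 18.1% to 28.6% of Treg-origin cells and 11.5% to 13.3% of CD4 cells once every cell was thinned to 2000 UMIs. Without thinning these shares were 40.7% to 52.0% and 33.6% to 43.3%.

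Cd101 was a rare transcript in all classes. It was counted at 7.81, 7.44, 6.69 and 7.81 CPM in Treg-origin cells, from only 13 to 18 UMIs per library, and at 2.15, 2.73, 2.21 and 2.36 CPM in CD4 cells. The log2 fold was 1.65 (SD 0.14, adjusted p = 5.27e-05 by edgeR), with all 4 Treg-origin values above the CD4 values. After thinning, 0.988% to 2.26% of Treg-origin and 0.438% to 0.716% of CD4 cells held a Cd101 UMI.

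The lower genes were led by Cd200. Its level was 11.7, 9.16, 12.4 and 10.7 CPM in Treg-origin cells and 16.1, 21.2, 18.4 and 23.5 CPM in CD4 cells, with no overlap (log2 fold -0.83, SD 0.36, adjusted p = 0.000719 by edgeR). Cd160 was at 15.2, 13.2, 11.5 and 18.1 CPM against 26.5, 19.2, 23.0 and 21.5 CPM (log2 fold -0.65, SD 0.31, adjusted p = 0.00161 by edgeR). Each Treg-origin value of Cd160 came from 23 to 37 UMIs, of which 37.1% to 56.5% were in the 5 cells with most.

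Havcr2 was at 32.1, 26.9, 31.5 and 34.2 CPM in Treg-origin cells and at 49.9, 49.8, 48.7 and 48.3 CPM in CD4 cells. The CD4 values agree within sampling noise, and the Treg-origin values lay below all of them (log2 fold -0.66, SD 0.16, adjusted p = 1.49e-05 by edgeR). This call depended on the antibody limit: with Treg-origin cells taken only below a ratio of -1.5 and conventional cells above 3, the log2 fold was -0.19 (adjusted p = 0.248) for Havcr2 and -0.48 (adjusted p = 0.080) for Cd160, while that of Lag3 was 1.30.

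**Figure D2:**
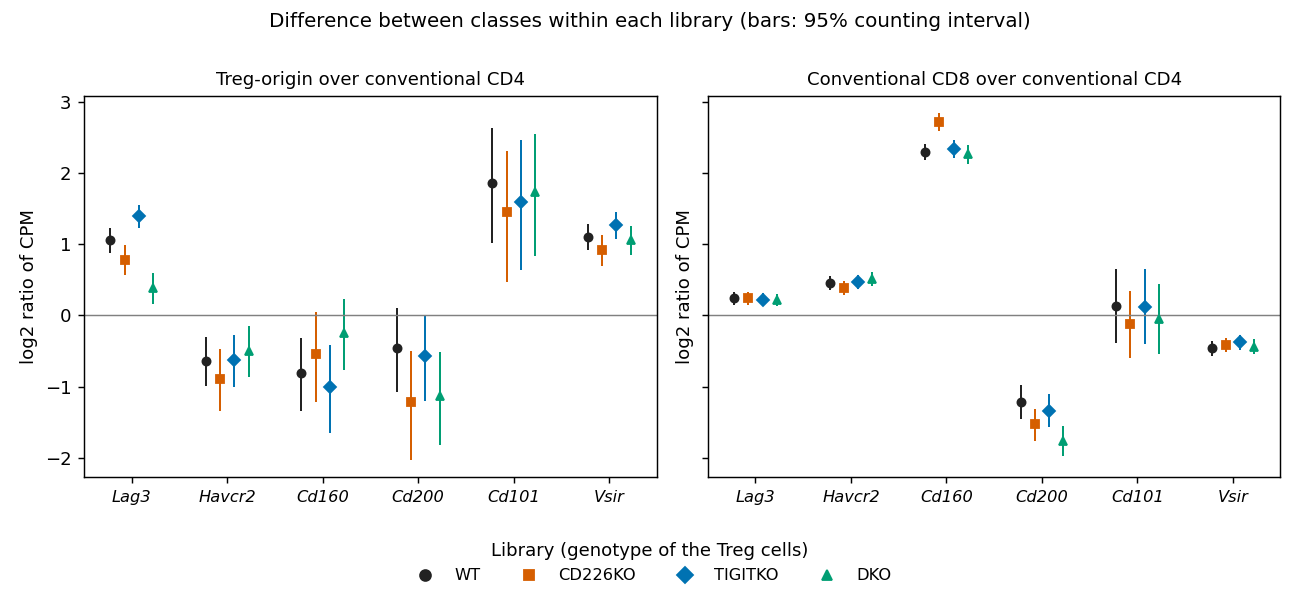
Log2 ratio of CPM within each library (vertical axis) of Treg-origin over conventional CD4 cells on the left and of conventional CD8 over conventional CD4 cells on the right. Each point is 1 library with its 95% counting interval, and 0 is no difference. On the left all 12 points of Lag3, Cd101 and Vsir lie above 0 and all 12 of Havcr2, Cd160 and Cd200 below it.

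The antibody ratio was therefore followed inside the Treg-origin class. Cells below -1.5, 39.5% to 54.0% of the class, held more Lag3 RNA than cells from -1.5 to -0.6: 186 against 72.6 CPM in the wild-type, 173 against 87.4 in the CD226-knockout, 238 against 138 in the TIGIT-knockout and 138 against 47.0 in the double-knockout library. The ratio was 1.72 to 2.94, higher in 4 of 4 libraries. Havcr2 was likewise higher below -1.5 in 4 of 4 libraries (44.4 ± 6.91 against 20.3 ± 5.33 CPM, SD, n = 4). Vsir was 133 ± 16.2 against 114 ± 13.2 CPM, and Cd160, Cd200 and Cd101 were higher in 2, 3 and 1 of 4 libraries. The sum of the 7 Treg markers moved with the ratio as well, at 1919 to 2112 CPM below -1.5 and 1273 to 1424 CPM above it. The share of cells with a Foxp3 UMI was mixed. It was 29.4% below against 19.8% above in the wild-type and 17.9% against 16.2% in the TIGIT-knockout library. In the CD226-knockout (24.4% against 27.9%) and double-knockout libraries (19.7% against 28.9%) it was lower below -1.5. Median depth was 3426 to 5526.5 UMIs below and 4454.5 to 5280 above. The part of cell composition or antibody background in this gradient was not tested.

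**Figure D3:**
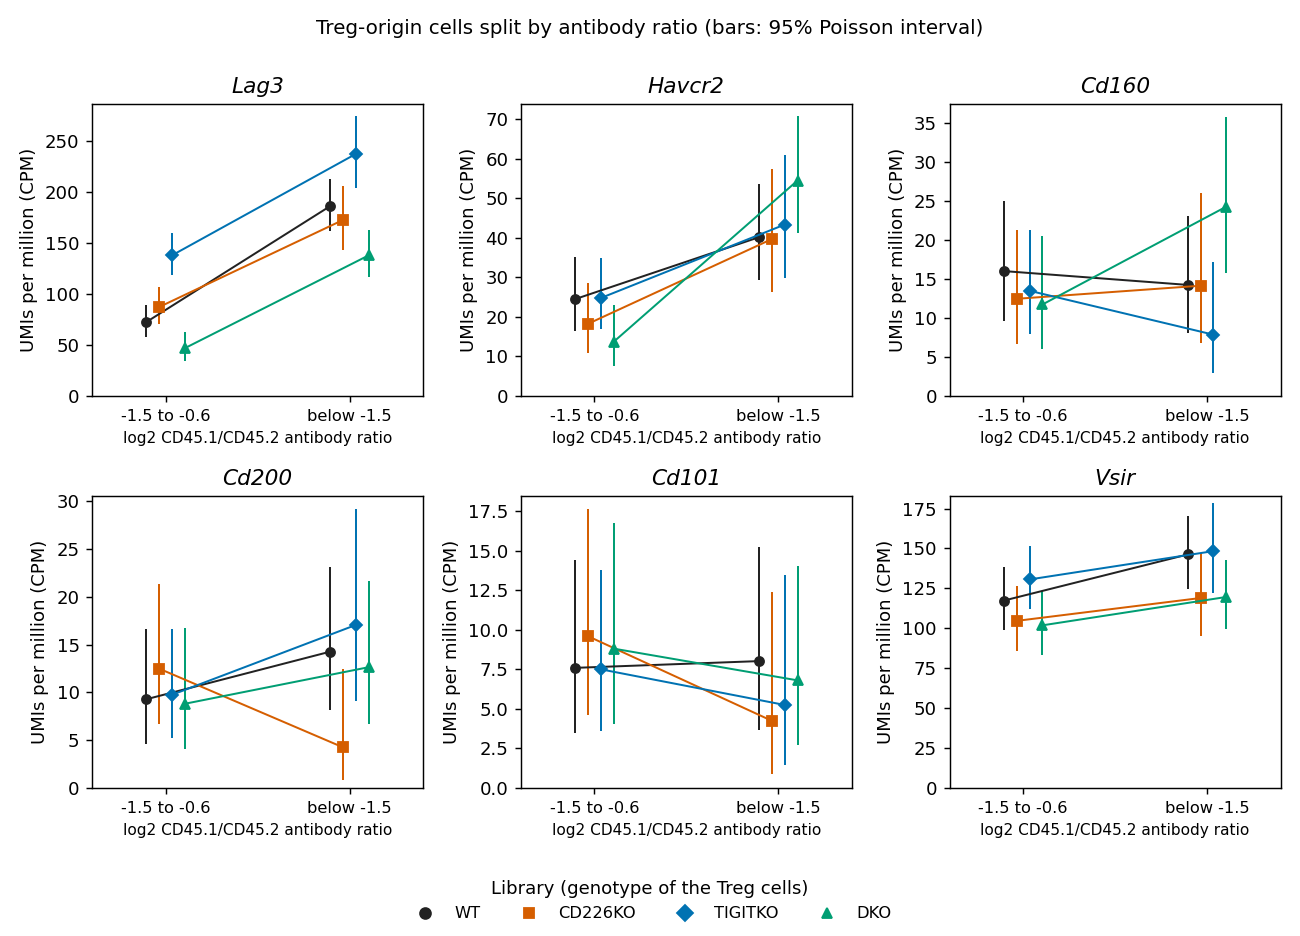
CPM (vertical axis) of the 6 genes in Treg-origin cells with an antibody log2 ratio from -1.5 to -0.6 and below -1.5. Each line joins the 2 values of 1 library, with 95% Poisson intervals. Lag3 and Havcr2 are higher below -1.5 in all 4 libraries, and the Cd160, Cd200 and Cd101 lines cross.

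Treg-origin cells were also split by detection of Foxp3, with no test. Cells with a Foxp3 UMI had 136 ± 36.6 CPM of Lag3 (SD, n = 4) and cells without one 127 ± 33.8 CPM, higher in 3 of 4 libraries. For Vsir the values were 119 ± 19.6 and 124 ± 13.6 CPM. Only 16.9% to 26.5% of Treg-origin cells held a Foxp3 UMI, and cells that express the gene below detection cannot be told apart here from cells that do not express it.

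Conventional CD8 and CD4 cells, both wild type, differed in 5 of the 6 genes (edgeR quasi-likelihood, library as block, n = 4). Lag3, Havcr2 and Cd160 were higher and Cd200 and Vsir lower in CD8 cells, while Cd101 did not pass. Among 11487 genes tested, 22.9% were called higher and 23.7% lower, 46.5% in all.

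Cd160 had the widest gap of the 6 genes between these classes. CD8 cells held 130, 126, 116 and 103 CPM, against the 19.2 to 26.5 CPM of CD4 cells. The log2 fold was 2.41 (SD of the paired ratios 0.20, adjusted p = 5.14e-11 by edgeR), a ratio of 4.78 to 6.54 within a library. After thinning, 18.2% to 22.3% of CD8 cells and 3.97% to 4.62% of CD4 cells held a Cd160 UMI. The raw shares were 53.8% to 62.7% and 11.6% to 15.3%.

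Havcr2 was at 68.2, 64.7, 67.3 and 68.9 CPM in CD8 cells, above all CD4 values (log2 fold 0.46, SD 0.06, adjusted p = 1.74e-07 by edgeR). Lag3 was at 72.7, 83.5, 77.3 and 82.6 CPM in CD8 cells, and each value was 1.16 to 1.18 times that of the CD4 cells of its own library. The log2 fold of Lag3 was 0.24 (SD 0.01, adjusted p = 8.86e-06 by edgeR). The lowest CD8 value of Lag3 was only just above the highest CD4 value, and with every cell thinned to 2000 UMIs its log2 fold was 0.11 and no longer passed (adjusted p = 0.0991).

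Cd200 went the other way, at 6.94, 7.34, 7.29 and 6.96 CPM in CD8 cells, below all CD4 values (log2 fold -1.46, SD 0.23, adjusted p = 5.63e-08 by edgeR). Vsir was at 44.4, 44.0, 44.0 and 39.3 CPM, also below all CD4 values (log2 fold -0.41, SD 0.04, adjusted p = 3.21e-07 by edgeR). Cd101 was at 2.36, 2.50, 2.41 and 2.28 CPM in CD8 cells, inside the range of the CD4 cells (log2 fold 0.03, adjusted p = 0.892 by edgeR).

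The order of the classes thus differed from gene to gene. Treg-origin and CD8 cells were compared as ratios only, with no test. Lag3 was 1.76, 1.46, 2.25 and 1.12 times as high in Treg-origin as in CD8 cells, and the interval of the double-knockout library (0.964 to 1.30) included 1. Vsir was 2.51 to 3.11 times and Cd101 2.78 to 3.43 times as high in Treg-origin as in CD8 cells. Cd160 was lowest in Treg-origin cells, at 0.0992 to 0.176 of the CD8 level, and Havcr2 at 0.416 to 0.496. Cd200 was 1.25 to 1.70 times as high in Treg-origin as in CD8 cells, with the interval including 1 in the CD226-knockout (0.701 to 2.07) and double-knockout (0.951 to 2.38) libraries.

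Free RNA in the droplets sets a floor under such shares, and the sort held no cell type known to lack these receptors. The B cell gene Ms4a1 was found in none of the thinned cells and Cd79a in at most 0.0695% of thinned CD4 or CD8 cells, whereas the haemoglobin gene Hbb-bs was found in 1.4% to 3.86% of CD4 cells. Hbb-bs was in 1.91% to 3.68% of CD8 and 1.23% to 2.55% of Treg-origin cells. The shares of Cd101 and Cd200 in all 3 classes and of Cd160 in Treg-origin cells (1.27% to 4.24%) overlap or lie below these values. Those of Cd200 were 1.90% to 3.12% in Treg-origin, 3.12% to 4.65% in CD4 and 1.24% to 1.44% in CD8 cells. By themselves these shares are not read as expression. The class differences given for these genes are differences in CPM, and the part of free RNA in the lower levels was not tested. The Treg-origin class also held 10 to 22 cells per library with more Cd8a and Cd8b1 than Cd4 UMIs.

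The class with an antibody ratio between the limits (434 to 1144 cells per library) can hold progeny of the bone marrow and doublets. No minimum count was set for either antibody, so weakly stained cells of the other classes can fall here as well. Within this class the direction of the CD4 and CD8 contrast was the same for 4 of the genes. Cells of this class with more Cd4 than Cd8a and Cd8b1 UMIs had 16.5 ± 5.96 CPM of Cd160 and cells with more Cd8 UMIs 104 ± 22.0 CPM (SD, n = 4), lower in 4 of 4 libraries. Havcr2 was at 46.7 ± 3.04 against 70.2 ± 6.67 CPM, Cd200 at 17.5 ± 5.31 against 7.15 ± 3.21 CPM and Vsir at 77.3 ± 4.76 against 49.0 ± 4.44 CPM, each with the same direction in all 4 libraries. These are descriptions with no test.

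Cycling was read from Mki67, a proliferation marker, in thinned cells. Among CD4 cells, those with an Mki67 UMI had less Lag3 (55.8 ± 5.0 against 79.1 ± 3.48 CPM, SD, n = 4), Cd160 (19.3 ± 2.95 against 25.8 ± 3.77), Cd200 (16.3 ± 3.11 against 23.2 ± 3.40) and Vsir (48.0 ± 5.19 against 66.6 ± 3.43), each lower in 4 of 4 libraries. Havcr2 was at 51.4 ± 1.52 against 47.0 ± 2.54 CPM, higher in 3 of 4. Among CD8 cells, Havcr2 was higher with Mki67 in 4 of 4 libraries (70.1 ± 2.30 against 64.0 ± 2.11 CPM), and Cd160 lower in 4 of 4 (112 ± 11.7 against 126 ± 12.5 CPM). In these cells Lag3 (74.9 ± 2.63 against 83.5 ± 7.84 CPM) and Vsir (40.1 ± 2.15 against 46.2 ± 2.67 CPM) were also lower in 4 of 4, while Cd200 and Cd101 were mixed. At equal depth, the shares of CD8 cells with Lag3, Cd160 or Vsir were higher with Mki67 in 1 of 4 libraries each, whereas that of Havcr2 was higher in 4 of 4. In CD4 cells at equal depth the shares with Lag3, Cd160, Cd200 and Vsir were lower in 4 of 4 and that with Havcr2 higher in 4 of 4. Depth moved with Mki67: before thinning, cells with it had a median of 8773.5 to 11248 UMIs in CD4 and 9936 to 13391 in CD8 cells, against 5940 to 7503 and 7843 to 10968.5 without it. Its part in the CPM differences was not tested. None of these splits was tested.

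Co-detection was counted in cells thinned to 2000 UMIs. In CD4 cells Lag3 and Cd200 were the pair found together most in excess. Cd200 was found in 6.95%, 7.08%, 6.93% and 10.9% of Lag3-positive CD4 cells and in 3.12%, 3.46%, 2.59% and 3.83% of Lag3-negative ones, a ratio of 2.05 to 2.85 from 108 cells with both. In CD8 cells the same ratio ran from 0.758 to 1.79, with 25 cells holding both.

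Lag3-positive CD4 cells also held Havcr2 more often (10.7% to 13.1% against 6.98% to 8.38%, ratio 1.27 to 1.70) and Vsir more often (15% to 17.7% against 11.1% to 12.9%, ratio 1.25 to 1.48), in 4 of 4 libraries each. Havcr2 and Vsir, on the other hand, were found together less often in CD4 cells: 7.52% to 11% of Havcr2-positive cells held Vsir against 11.7% to 13.6% of the rest (ratio 0.595 to 0.856, lower in 4 of 4). Raw depth moved with these groups. Lag3-positive CD4 cells had a median of 6050 to 7733 UMIs before thinning against 7225 to 9157 in Lag3-negative ones, and Havcr2-positive CD4 cells 8043.5 to 11646.5 against 7007 to 8927. Its part in the co-detection was not tested.

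In CD8 cells, 9.93% to 11.8% of Cd160-positive cells held Havcr2 against 11.8% to 13.0% of Cd160-negative ones (ratio 0.816 to 0.910, lower in 4 of 4 libraries). Both genes were highest in this class, yet CD8 cells with one held the other somewhat less often than CD8 cells without it. The difference was -2.24 to -1.17 percentage points, from 48, 52, 55 and 73 cells with both. No interval was put on it, and the part of counting error was not tested. In Treg-origin cells only Lag3 with Vsir reached 72 cells with both, at a ratio of 1.08 to 1.38, and the numbers of the other pairs were too small to read.

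Few cells held many of the 6 genes at equal depth. At 2000 UMIs, 65.4% to 67.3% of CD4, 53.0% to 55.2% of CD8 and 52.4% to 66.0% of Treg-origin cells held none of them, and at most 2.27% in any class and library held 3 or more. Without thinning 28.6% to 38.9% of CD8 cells, 10.6% to 16.6% of CD4 cells and 4.52% to 12% of Treg-origin cells held 3 or more, and at least 1 CD8 cell in each library held all 6. The order of the classes by these raw shares follows their depth.

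**Figure D4:**
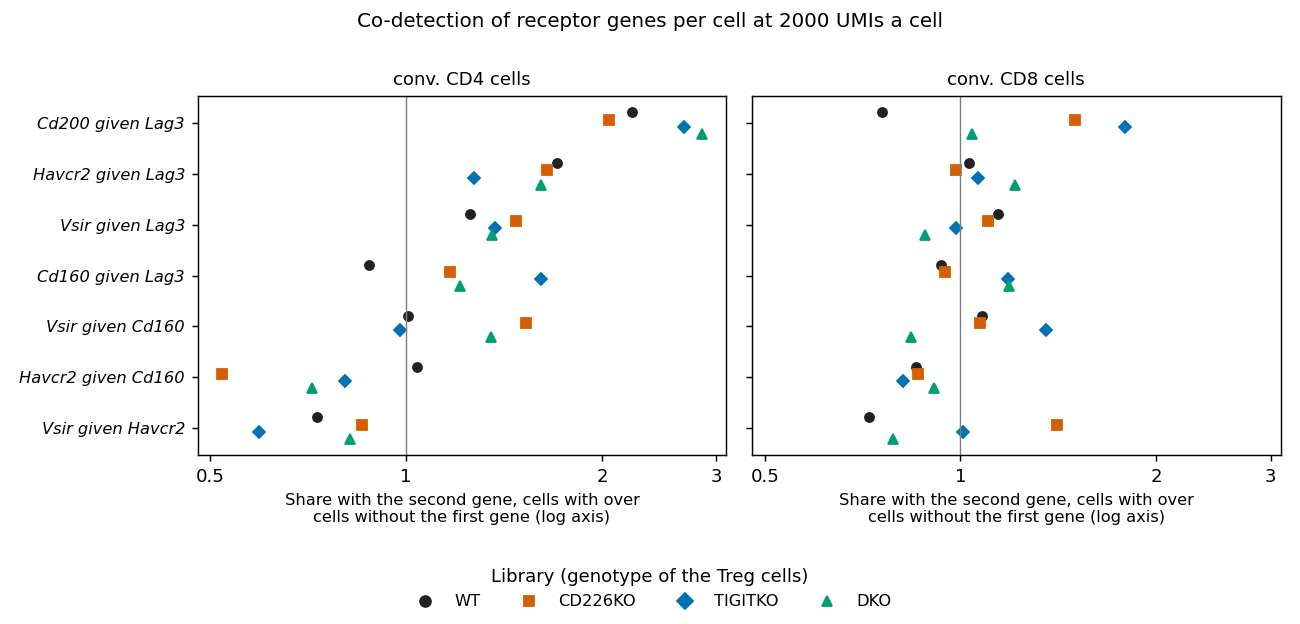
Share of cells with the second gene among cells with the first, divided by the share among cells without it (horizontal log axis), in conventional CD4 (left) and CD8 (right) cells thinned to 2000 UMIs. Each point is 1 library and the line at 1 is equal shares. In CD4 cells the 4 points of Cd200 given Lag3 lie from 2.05 to 2.85 and those of Vsir given Havcr2 below 1.

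The genes most often found with each member were ranked by the smallest difference in share between positive and negative cells over the 4 libraries, for members with at least 100 positive thinned cells in each. Of 4108 genes ranked in CD4 cells, Bcl2a1b, Tnfrsf4, Tnfrsf18, Ptms and Sdf4 led for Lag3. Bcl2a1b, a survival gene with near-identical copies whose counts are uncertain, was at least 12.5 percentage points more frequent in Lag3-positive cells, and Tnfrsf4 (OX40) at least 11.5. Ptms, the neighbour of Lag3 on the same strand, was in 34.9% to 41.1% of Lag3-positive and 22.9% to 25.6% of Lag3-negative CD4 cells. Ptms was not called between Treg-origin and CD4 cells (log2 fold 0.12, adjusted p = 0.227 by edgeR). Outside the rule and chosen after its values were seen, Pdcd1 was at least 8.03 points more frequent with Lag3, and the interferon-induced Ifitm3 at least 18.0 points less frequent (24.7% to 38.4% against 45.4% to 56.4%).

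For Havcr2 in CD4 cells the leading genes were Lgals3, Ifng, Gzmb, Anxa2 and Tnfrsf4. Lgals3 (galectin-3) was in 76.3% to 81.4% of Havcr2-positive and 59.8% to 66.7% of Havcr2-negative cells, and Ifng in 27.4% to 30.1% against 14.4% to 16.3%. Cd160-positive CD4 cells were led by Bcl2a1b, Bcl2a1d, Pdcd4, Ctsw and Nrgn. Lgals3, chosen here after its values were seen, was less frequent in them (at least 12.5 percentage points), the reverse of Havcr2. Vsir-positive CD4 cells were led by Slfn2, Ifi27l2a, Maf, Cnn2 and Gimap3, and the proliferation-linked Stmn1, also chosen afterwards, was in 52.5% to 55.3% of them against 66.5% to 68.0% of the rest.

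In CD8 cells (4057 genes ranked) the differences were smaller. Cst7, Bcl2a1b, Ccl4, Bcl2a1d and Fis1 led for Lag3, of which Cst7, a protease inhibitor of cytotoxic cells, was at least 6.03 points more frequent. The perforin gene Prf1 led for Havcr2 (31.7% to 36.9% against 26.1% to 28.5%), followed by Eif3a, Ostc, Tnfrsf9 and Magohb. The receptor gene Klrd1 (CD94) led for Cd160 (38.1% to 49.5% against 31.2% to 40.9%), followed by Cd8a, Psmb10, Klrk1 and Ctsw. Ifi27l2a, Cd53, Rsrp1, Sept1 and Akr1a1 led for Vsir.

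Among other genes of these pathways, 14 further inhibitory receptors could be tested between Treg-origin and CD4 cells, of which 5 were higher, 4 lower and 4 not called, with Tigit left out because it was deleted in some of the Treg cells. The median log2 fold of the list was 0.04 against 0.01 over all genes. Of all genes tested, 21.5% were called higher and 20.5% lower in this comparison, and 22.9% and 23.7% between CD8 and CD4 cells. The counts of the lists that follow stand beside the same shares. Klrg1 (82.9 against 12.4 CPM, log2 fold 2.73), Ctla4 (216 against 44.1 CPM, 2.28) and Cd72 (2.45 against 0.208 CPM, 3.49) led the higher genes, and Klrc1 (log2 fold -1.70), Lair1 (-1.35) and Pdcd1 (-0.80) the lower ones. Cd72 is best known from B cells, whose markers were uneven in the Treg-origin class, and their part in its value was not tested. Between CD8 and CD4 cells, 4 of the 14 were higher, led by Cd72, Cd244 and Klrc1 (log2 folds 3.73, 2.64 and 2.04), and 8 lower, led by Cd200r1, Tigit and Btla (-1.56, -0.92 and -0.89), with a median of -0.16 against -0.00 over all genes.

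Ligands and partners of the receptors were measured in the T cells themselves, which is not where they usually meet them. In Treg-origin against CD4 cells 7 of 16 tested were higher and 4 lower (median log2 fold 0.21), beside 21.5% and 20.5% of all genes. The MHC class II genes H2-Aa, H2-Eb1 and H2-Ab1, which encode the ligand of LAG3, had log2 folds of 2.40, 2.37 and 2.33 at 12.1, 13.9 and 36.7 CPM in Treg-origin cells, beside the uneven B cell markers given above, whose part was not tested. Lgals3, Btla and Cd4 were lower (-1.26, -0.60 and -0.53). Cd200r1, which encodes the receptor for CD200, was at 34.7 against 32.3 CPM and was not called (adjusted p = 0.496 by edgeR), whereas CD8 cells had 10.9 CPM and were lower than CD4 cells. In CD8 against CD4 cells 4 of 16 ligands and partners were higher, Lgals3, H2-Aa and Hmgb1 most (0.53, 0.42 and 0.22), and 6 lower (median -0.18).

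Of 10 intracellular partners, 2 were higher in Treg-origin cells, Dok1 (log2 fold 0.94) and Inpp5d, which encodes the phosphatase SHIP1 (0.79). The 4 lower ones were led by the phosphatase genes Ptpn6 and Ptpn11 and by Bag6, the partner of TIM3 (-0.91, -0.55 and -0.24), and the list's median was -0.09. In CD8 cells 1 of 10 was higher, the kinase gene Csk (0.09), and 7 lower, led by Dok2, Ptpn6 and Inpp5d (-0.45, -0.29 and -0.28), with a median of -0.13.

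The IL-27 and Tr1 module, genes linked to co-inhibitory receptors in IL-10-producing T cells, was higher throughout in Treg-origin cells. All 10 of the 10 members tested of 12 were called, with a median log2 fold of 0.92 against 0.01 over all genes. Like the other lists, this one was chosen with earlier results of these data known, so its count is no independent result. Ebi3, a subunit of IL-27 and IL-35, was at 32.0 against 5.46 CPM (log2 fold 2.53), Il10 at 52.2 against 10.4 CPM (2.30) and the granzyme gene Gzmb at 3713 against 1307 CPM (log2 fold 1.498). In CD8 against CD4 cells 3 were higher, Gzmb, Prdm1 and Il10ra (1.87, 0.23 and 0.20), and 6 lower, led by Ebi3, Maf and Ahr (-2.29, -1.54 and -1.24), with a median of -0.32.

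Of 16 exhaustion and effector factors, 2 were higher in Treg-origin cells, Ikzf2 (log2 fold 3.67), which is also a Treg marker, and Batf (0.25). The 6 lower ones were led by Id3, Tcf7 and Tbx21 (-1.95, -1.22 and -1.12), and the median was -0.24. Tox, a factor of exhausted T cells, was at 36.4 against 35.1 CPM and was not called (adjusted p = 0.773 by edgeR). CD8 cells had 4 higher, Eomes, Nr4a2 and Runx3 most (1.86, 0.99 and 0.34), and 9 lower, led by Tcf7, Id3 and Tox2 (-1.36, -1.27 and -0.90), with a median of -0.21. Adam10 and Adam17, whose proteases release LAG3 from the cell surface, were not called in Treg-origin cells (median log2 fold 0.03), and Adam10 was lower in CD8 cells (-0.18). Havcr1 was at 0 in all 3 classes, and Timd2 and Timd4 were too rare to test.

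Between genotypes each value is 1 library, so ratios of CPM are given with a 95% interval for counting error and without a test. Contrasts for CD226 lie within a lane and those for TIGIT between lanes. The median log2 ratio over genes of at least 5 CPM stayed between -0.02 and 0.03 in every class and contrast.

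In Treg-origin cells, which carried the deletions themselves, Lag3 varied most. It was 0.953 times the wild-type level with CD226 deleted (interval 0.795 to 1.14) and 1.36 times with TIGIT deleted (1.17 to 1.59). The double knockout had 0.532 times the level of the TIGIT knockout (0.444 to 0.636) and 0.761 times that of the CD226 knockout (0.622 to 0.929). By CPM the TIGIT knockout was therefore the highest and the double knockout the lowest library. The share of Treg-origin cells with a Lag3 UMI was 32.2%, 26.2%, 36.4% and 26.9%. In thinned cells it was 18.4%, 14.3%, 24.2% and 14.7%. By share the CD226 knockout was the lowest library, close to the double knockout. Of the 6 genes, 0, 2, 1 and 1 had an interval without 1 in the contrasts for CD226 with TIGIT present and absent and for TIGIT with CD226 present and absent. Over all genes of this class the shares were 10.9%, 12.2%, 9.67% and 11.4%.

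The CPM order of Lag3 was also present in Treg-origin cells below an antibody ratio of -1.5. There the double knockout had 0.581 times the TIGIT-knockout level (0.463 to 0.728). These cells are a part of the same class in the same libraries, so this is no independent check. In thinned cells both TIGIT intervals of Lag3 included 1, as given further below. Vsir was 0.840 (0.698 to 1.01) and 0.808 (0.676 to 0.965) times as high with CD226 deleted, in the presence and absence of TIGIT. For Havcr2, Cd160, Cd200 and Cd101, all 16 intervals in Treg-origin cells included 1, so changes were not detectable at this depth.

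The conventional cells were wild type in every library, and only the Treg cells given with them differed. Cd200 in CD4 cells was 1.32 times (1.17 to 1.49) and 1.28 times (1.13 to 1.45) as high with CD226-deleted Treg cells, in the presence and absence of TIGIT, and in thinned cells 1.09 times (0.835 to 1.42) and 1.46 times (1.13 to 1.89). Lag3 was 1.15 and 1.07 times as high in CD4 cells and 1.15 and 1.07 times in CD8 cells in the same contrasts, with intervals from 1.003 to 1.22 in CD4 and from 1.01 to 1.22 in CD8 cells. With cells thinned to 2000 UMIs the CD4 ratios of Lag3 were 1.01 (0.885 to 1.15) and 0.891 (0.780 to 1.02), and both intervals then included 1. Cd160 in CD4 cells was 0.726 times (0.650 to 0.811) and 0.936 times (0.832 to 1.05) as high, and the first of these ratios was 0.986 (0.776 to 1.25) in thinned cells.

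Cd160 in CD8 cells was 0.889 times (0.849 to 0.930) as high with TIGIT-deleted Treg cells in the presence and 0.817 times (0.782 to 0.854) in the absence of CD226, contrasts in which lane and TIGIT status cannot be told apart. Within lane 4, CD226 deletion gave 0.890 times the level (0.850 to 0.931), and within lane 3 it gave 0.967 times (0.924 to 1.01). Havcr2 in CD4 cells stayed within 0.970 to 0.998 in all 4 contrasts. In the same order of contrasts, 3, 2, 3 and 1 of the 6 genes had an interval without 1 in CD4 cells, against 25.3%, 35.6%, 25.3% and 26.9% of all genes there. In CD8 cells the counts were 1, 3, 2 and 3, against 35.4%, 38.1%, 27.6% and 34.1% of the 8145 such genes. Cd101 lay below 5 CPM in both classes, so it is among the 6 genes but not among those of the shares.

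**Figure D5:**
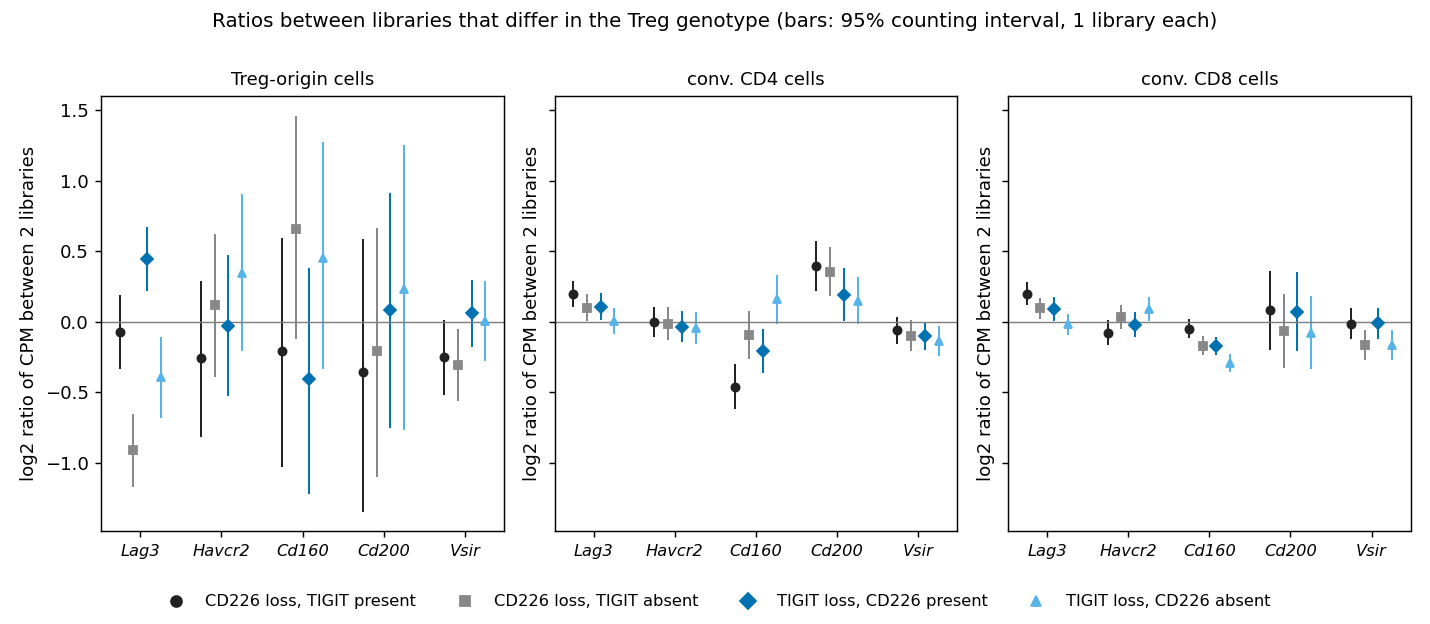
Log2 ratio of CPM between 2 libraries (vertical axis) for 5 of the genes in each class, with 95% counting intervals. Colours mark the 4 contrasts named in the key, each of 1 library against 1 library. In Treg-origin cells the TIGIT contrasts of Lag3 lie on opposite sides of 0, and in CD4 cells Cd200 lies above 0 in both CD226 contrasts.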

How the data were processed

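The deposited matrices hold counts of UMIs per gene and cell and counts of 2 antibodies, made by the authors with Cell Ranger 3.1.0 and the mm10 genome, per the submitters' processing notes. Reads were 3' tags, so UMIs depend little on gene length. Cells needed 500 detected genes or more and a mitochondrial share of no more than 10%, and doublets were not removed. Donor origin came from log2((CD45.1 + 1)/(CD45.2 + 1)). Conventional cells were CD4 or CD8 by whichever of Cd4 and Cd8a plus Cd8b1 had more UMIs, and cells with equal counts were left out. Sums of UMIs over each class of a library were compared with edgeR 4.0.16 (filterByExpr, TMM, library as block, Benjamini-Hochberg over all genes tested). Intervals are exact Poisson, binomial or conditional binomial at 95% and cover counting error only. Thinning drew 2000 UMIs per cell and left out shallower cells.

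Both classes of a library come from the same pool, which is the pairing per the labels. Their deviations from the class means correlated at -0.187 to 0.039 between Treg-origin and CD4 cells and at 0.165 to 0.393 between CD8 and CD4 cells. Counts were also simulated from the mean gene levels and the totals of these libraries, with 50 genes changed per fold. The coefficient of variation between libraries was set to 0.1 for every gene, with no genotype or library effect. There edgeR found 68%, 86%, 98% and 98% at 1.5-, 2-, 3- and 4-fold for Treg-origin against CD4 (12 of 187 calls false, 10712 genes). For CD8 against CD4 it found 78%, 92%, 94% and 96% (11 of 191, 11519 genes). The measured spread of each gene was not used, so these rates need not hold for the 6 genes. The 6 genes and all lists were chosen with earlier results of these data known. From each list at most 3 called genes per direction with the largest fold were named, and per member the 5 most co-detected genes. Genes not called were also named outside this rule. These were Cd200r1, Tox, Adam10 and Adam17 in Treg-origin against CD4 cells, and the untested Havcr1, Timd2 and Timd4. Cd226 and Tigit, and Cd4, Cd8a and Cd8b1, were left out of the calls of the comparisons they define. Gene positions are from GENCODE vM21. Alternatives used DESeq2 1.42.0, other filters, limits and single libraries left out.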

Additional observations from a re-analysis of the deposited data

Results flagged for a closer look

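The CPM of Lag3 in Treg-origin cells moved in opposite directions with TIGIT deletion. The ratio of CPM was 1.36 with CD226 present (interval 1.17 to 1.59) and 0.761 with CD226 absent (0.622 to 0.929). Each value compares 1 library with 1 library in another lane, and the difference between them was not tested. With cells thinned to 2000 UMIs the ratios were 1.22 (0.958 to 1.56) and 0.846 (0.613 to 1.17), and both intervals then included 1. The share of thinned cells with a Lag3 UMI did not fall with CD226 absent. It was 14.3% in the CD226-knockout and 14.7% in the double-knockout library.

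Vsir in CD8 cells was at 39.3 CPM in the double-knockout library, apart from the other 3, which lay from 44.0 to 44.4 CPM. The gap to the nearest library was 0.924 of the whole range, above Dixon's critical value for 4 values. Chance flags about 1 in 20 groups of values, and every gene was looked at in each of the 3 classes.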

How the results depend on the processing

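Of the values that answer a comparison, 215 stayed the same under the alternatives run. For a fold this means the same direction and side of the threshold, and for a number of called genes a set factor from the main number. Of the rest, 3 numbers of called genes moved, 3 folds changed sign and 3 folds no longer passed. With stricter antibody limits the log2 fold of Treg-origin over CD4 cells was -0.19 for Havcr2 (adjusted p = 0.248) and -0.48 for Cd160 (adjusted p = 0.080), and neither passed. Thinning to 2000 UMIs gave 2957 called genes in place of 4522 for Treg-origin against CD4 and 3398 in place of 5344 for CD8 against CD4, where DESeq2 gave 3243. Thinning also took the Lag3 difference between CD8 and CD4 to 0.11 (adjusted p = 0.0991). Cd101, not called between CD8 and CD4 in any setting, changed sign to -0.16 with thinning and ranged from -0.0098 to 0.075 when a library was left out (-0.0098 without the wild-type and -0.0067 without the TIGIT-knockout library). The causes were not tested. Without the library as block (no replicate block) 4433 and 3581 genes were called, and the calls of the 6 genes did not change. Of the ratios between genotypes, 451 stayed inside the counting interval of the main value and 53 did not. Thinned cells hold fewer UMIs, which limits the rare genes most: Cd101, Cd200 and Cd160 in Treg-origin cells rest on 13 to 37 UMIs per library. The filter on a broad list of other-cell markers removed many CD8 cells, so a narrower list was added after seeing the data.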
